A study of Mus musculus with 2 samples.

Results

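The genes described here handle iron and heme, and there are 7 of them: Tfrc, Slc11a1, Fth1, Ftl1, Hmox1, Blvrb and Slc40a1. They were chosen by name, as the rows of the count files that carry these symbols, and all 7 were found among the 22780 genes of the Control library and the 21523 genes of the TTS library. CD45+ cells, the leukocytes, were sorted from the hearts of female C57BL6 mice and profiled by scRNA-Seq on a 10x Genomics Chromium Controller, in which unique molecular identifiers (UMIs) count the captured RNA molecules. The TTS library came from mice that received isoproterenol (ISO) intraperitoneally at 200 mg/kg, 24 hours before the hearts were taken. ISO is a beta-adrenergic agonist, used here as a model of Takotsubo syndrome. The Control library came from mice given the vehicle, PBS, as the study's methods state, and 15000 cells of 3 pooled hearts were loaded for each library. The deposited descriptions give the ISO dose for both samples, so that Control was told from TTS by the sample titles. The study's methods give an age range of 8 to 16 weeks for its ISO experiments.

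With 1 library per group there was no replicate and no test was made. Levels are UMIs of a gene summed over the cells of a gate, per 1000000 UMIs of that gate (CPM), with exact Poisson 95% intervals, and the libraries were compared as the log2 ratio of TTS to Control. All intervals cover counting error only, and they say nothing about the spread between mice. Because the libraries are 3′ tag counts, a level was compared between cells and never between genes.

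Macrophages take up iron bound to transferrin through the transferrin receptor, and they take in heme when they engulf red blood cells or damaged tissue. Heme oxygenase 1 opens the heme ring and releases its iron, which is either stored in ferritin, a shell built of heavy and light chains, or sent out of the cell by ferroportin. Tissue macrophages are known for this recycling of iron. Iron regulatory proteins set the translation of ferritin and ferroportin and the stability of the transferrin receptor RNA by binding a short hairpin, the iron-responsive element, in the untranslated regions (UTRs).

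The 4 genes that carry such a hairpin are shown because part of this control acts on translation, and only RNA was measured here. The reference transcripts of GENCODE M21 on GRCm38 were searched on the sense strand for a C, any 5 bases and the loop CAGTGN, with the 5 bases before the loop able to pair with the 5 after it (G-T pairs allowed). Each site is printed in 30 bases with the loop in capitals. In 5′ UTRs the pattern was found in 3 of the 7 genes, against 0.096% of 20844 coding genes, and in 3′ UTRs in 1 of the 7, against 0.485%. A match describes letters and not a bound site.
Fth1 5′ UTR, chr19:9982731-9982760 (+): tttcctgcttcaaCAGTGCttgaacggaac
Ftl1 5′ UTR, chr7:45459779-45459808 (-): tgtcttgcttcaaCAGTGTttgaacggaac
Slc40a1 5′ UTR, chr1:45925465-45925494 (-): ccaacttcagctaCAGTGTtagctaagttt
Tfrc 3′ UTR, chr16:32631218-32631247 (+): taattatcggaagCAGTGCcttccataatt
Tfrc 3′ UTR, chr16:32631597-32631626 (+): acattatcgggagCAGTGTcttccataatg
Tfrc 3′ UTR, chr16:32631662-32631691 (+): tctatatcggagaCAGTGAtctccatatgt
Tfrc 3′ UTR, chr16:32631709-32631738 (+): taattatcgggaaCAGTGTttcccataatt

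Barcodes were kept if they had more than 500 and less than 6000 genes and a mitochondrial share of UMIs below 25%, which left 5641 Control and 5437 TTS barcodes with medians of 4790 and 8537 UMIs. They were gated by marker genes, none of them an iron or heme gene. Macrophages were split into a resident gate (Timd4, Lyve1 or Folr2), an Arg1-high gate, a Ccr2 gate, an MHC class II high gate without Ccr2, and the other macrophages. The resident gate held 396 Control and 190 TTS barcodes, the MHC class II high gate 264 and 22, the Ccr2 gate 128 and 1331, the Arg1-high gate 0 and 386, and the other macrophages 61 and 113. The TTS resident gate also held Ccr2 at 369 CPM and Arg1 at 403 CPM, against 97.8 and 3.61 CPM in Control. Barcodes with markers of 2 lineages, 27.7% of the Control and 31.5% of the TTS barcodes, were kept apart. They held between 42.0% and 72.9% of each gene's UMIs, beside 54.2% of all UMIs in Control and 43.7% in TTS. In Control macrophages Gm26924, a noncoding transcript, took 60343 CPM, against 11262 CPM in TTS. Of the kept barcodes, 15 occurred in both libraries. The summed level of immediate early and heat shock genes, which can respond to tissue digestion, was 14347 CPM in Control and 8180 CPM in TTS macrophages, with none of its genes at 0, and its part in the results was not tested.

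**Figure D1:**
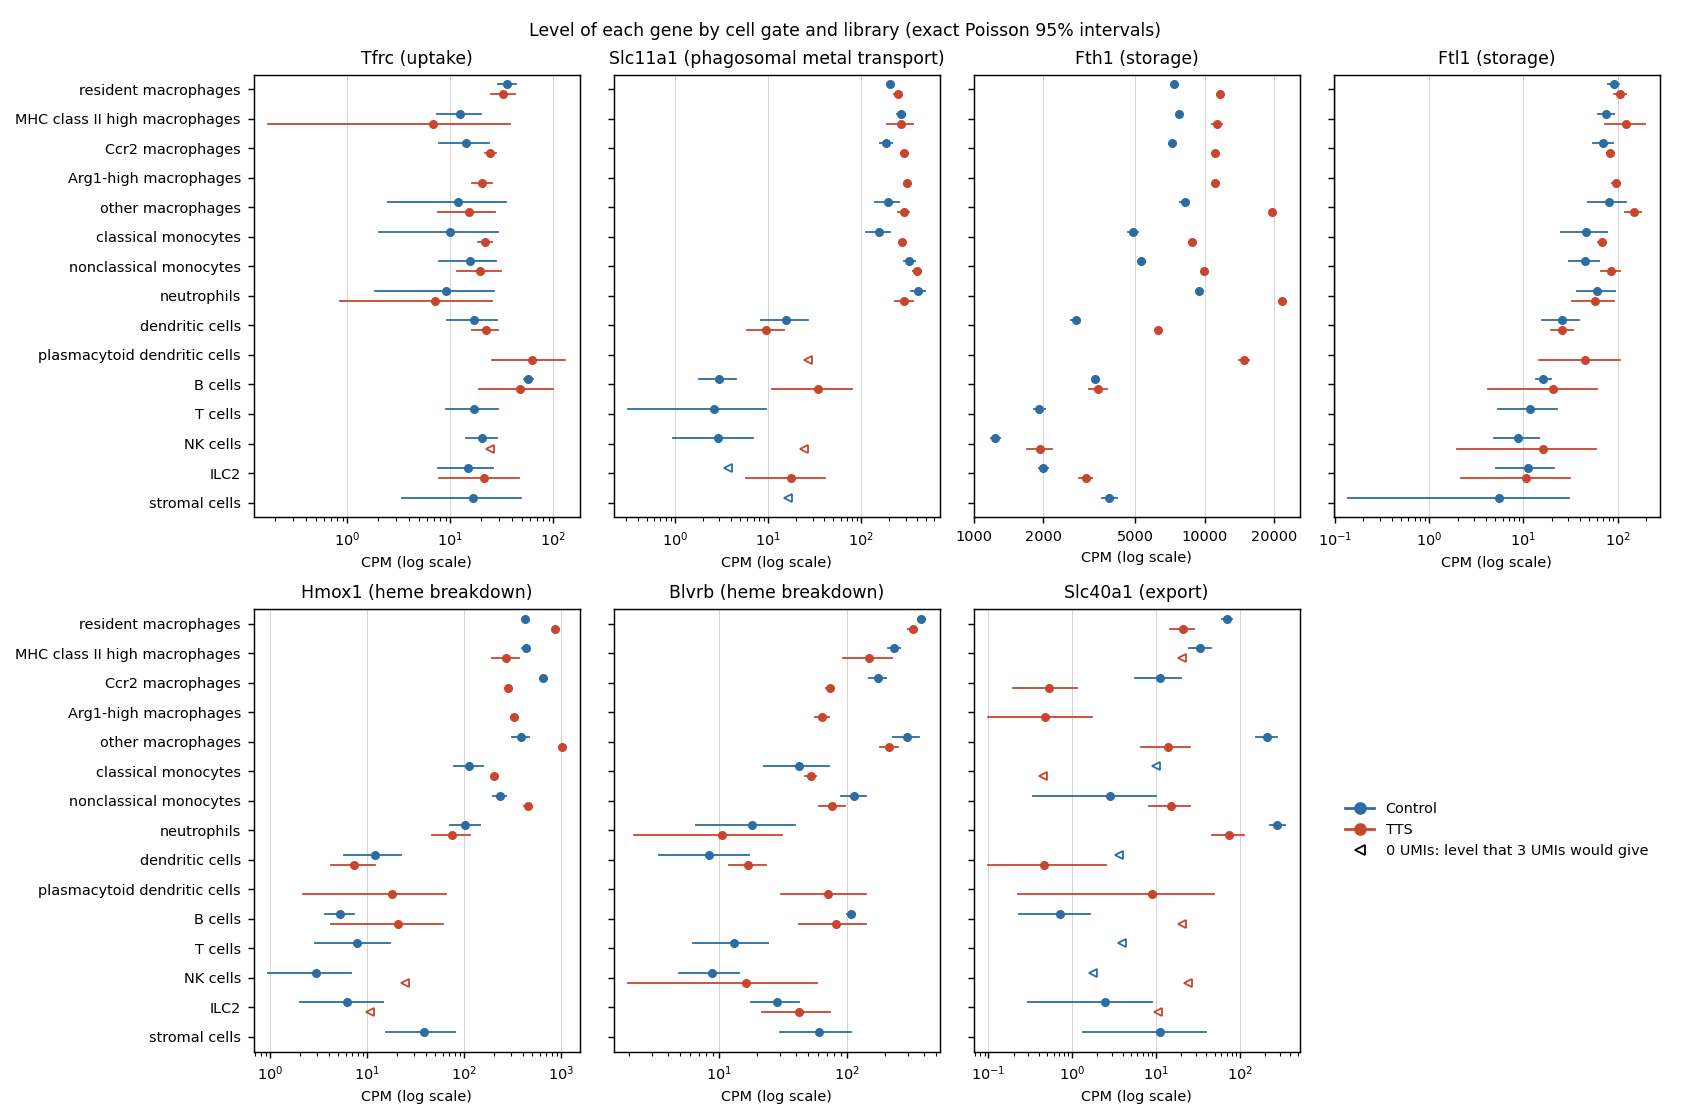
CPM of each gene (x axis, log scale) in each gate with at least 20 barcodes (y axis) in the Control and TTS libraries, with lines for exact Poisson 95% intervals and open triangles at the level that 3 UMIs would give where no UMI was counted. Fth1 sat higher in TTS in every myeloid gate, whereas Slc40a1 sat lower in resident and other macrophages and in neutrophils, and in Ccr2 macrophages, where 1 barcode held 10 of the 11 Control UMIs.

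Across all macrophages (849 Control and 2042 TTS barcodes), 0 of the 7 genes were at least 2-fold higher in TTS, beside 9.84% of the 12181 genes with at least 20 UMIs. Blvrb and Slc40a1, 2 of the 7, were at least 2-fold lower, beside 23.4% of all genes. The median log2 ratio was -0.05 over the 7 genes and -0.27 over all genes, so that a gene at the middle of all genes was itself below 0. The macrophage gates changed in makeup between the libraries, and the same genes are therefore given gate by gate.

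**Figure D2:**
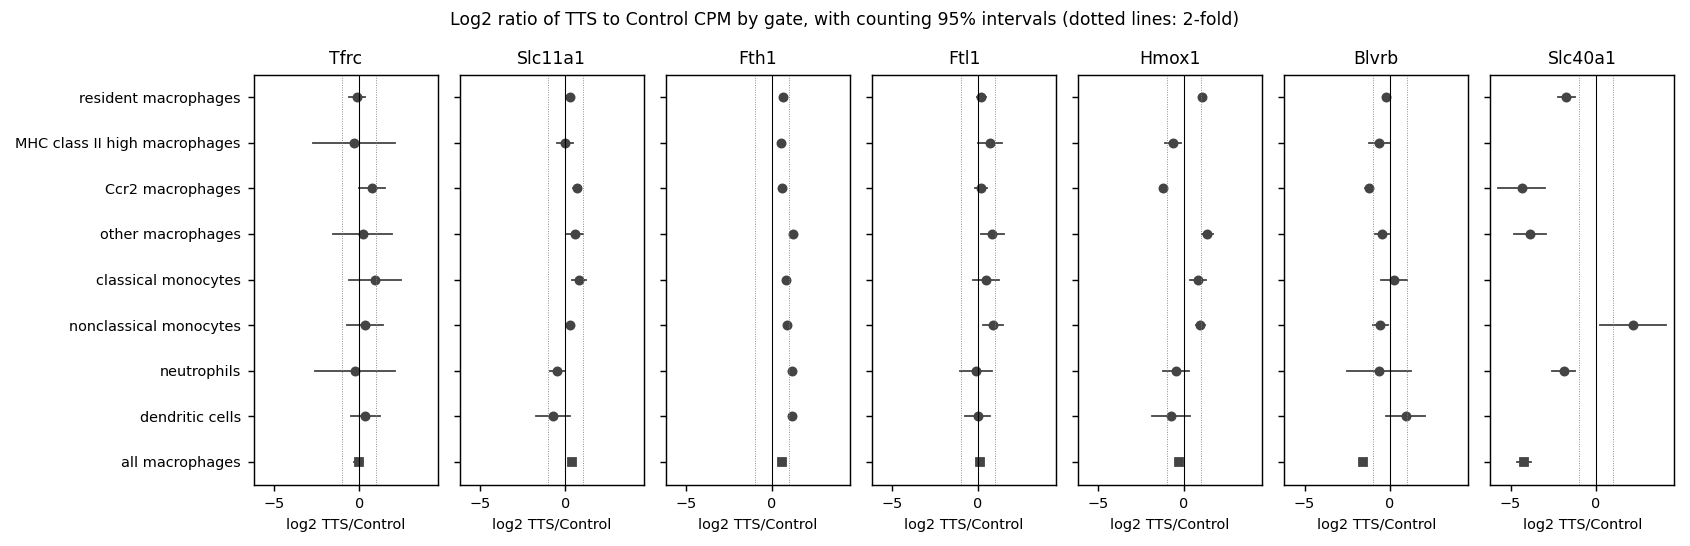
Log2 ratio of TTS to Control CPM (x axis) for each gene in the myeloid gates found in both libraries and in all macrophages (y axis), with counting 95% intervals and dotted lines at 2-fold; Slc40a1 is not drawn where a library had no UMI. Hmox1 was on opposite sides of 0 in resident (1.04) and Ccr2 macrophages (-1.20, or -0.20 without the richest barcodes).

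Tfrc, on chromosome 16 (GRCm38 16:32608920-32632794, + strand, 19 exons), encodes the transferrin receptor, which takes in iron-loaded transferrin. It was sparse in every gate. B cells held the highest Control level, 57.0 CPM (51.6 to 62.8), followed by resident macrophages at 35.7 CPM (29.0 to 43.5), and these 2 intervals did not overlap. In Control, the resident level was 2.80-fold that of MHC class II high macrophages and 2.43-fold that of Ccr2 macrophages, and both intervals of the log2 ratio excluded 0 (0.77 to 2.20 and 0.49 to 2.08).

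Between the libraries, Tfrc was at 24.6 CPM in Control and 23.9 CPM in TTS macrophages, a log2 ratio of -0.05 (-0.33 to 0.23). In resident macrophages it was at 35.7 and 32.6 CPM, and in Ccr2 macrophages at 14.3 and 24.6 CPM. No myeloid gate found in both libraries gave a Tfrc interval that excluded 0 as counted. The widest of these intervals, in MHC class II high macrophages, rested on 18 Control UMIs and 1 TTS UMI. The Ccr2 ratio was 0.74 (-0.02 to 1.50). Without the richest barcode of each library, which held 2 of the 14 Control and 6 of the 279 TTS UMIs, it was 0.91 (0.09 to 1.73). Whether the Ccr2 interval excluded 0 therefore depended on these barcodes. After thinning each cell to 1000 UMIs, Tfrc was seen in 5.09% of Control B cells (4.14 to 6.17%) and 4.04% of Control resident macrophages (2.33 to 6.48%).

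Slc11a1, on chromosome 1 (GRCm38 1:74375195-74386062, + strand, 15 exons), encodes the metal transporter NRAMP1, which moves divalent metals across the phagosome membrane of macrophages and neutrophils. It was highest in monocytes, macrophages and neutrophils in both libraries. In Control it was highest in neutrophils, at 405 CPM (339 to 479), and nonclassical monocytes, at 328 CPM (287 to 372), which overlapped. Control B cells held 2.97 CPM and NK cells 2.93 CPM.

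In TTS, Slc11a1 was higher in classical monocytes and Ccr2 macrophages. Classical monocytes held 155 CPM in Control and 272 CPM in TTS, a log2 ratio of 0.80 (0.38 to 1.21), and Ccr2 macrophages held 183 and 290 CPM, a log2 ratio of 0.66 (0.44 to 0.87). In resident macrophages the levels were 205 and 246 CPM (0.26, 0.08 to 0.44), and in MHC class II high macrophages 270.0 and 265 CPM (-0.01, -0.48 to 0.46). In the 340 Control and 94 TTS resident barcodes with no Ccr2 and no Arg1 UMI, Slc11a1 was at 210.4 and 214 CPM. That log2 ratio was 0.03 (-0.25 to 0.31), so the resident difference was not seen in these barcodes. Neutrophils went the other way, from 405 to 287 CPM, a log2 ratio of -0.49 (-0.89 to -0.10). In the TTS order, nonclassical monocytes stood first at 398 CPM, and Arg1-high, Ccr2 and other macrophages and neutrophils lay between 286 and 307 CPM with overlapping neighbours.

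The share of cells with an Slc11a1 UMI, after thinning to 1000 UMIs, was 17.2% in Control and 26.7% in TTS Ccr2 macrophages, and 61.7% and 82.1% without thinning. In Control B cells, which should lack the gene, it was 0.367% thinned and 0.942% unthinned, with a median depth of 3249.5 UMIs against 6991.5 in Control Ccr2 macrophages. The 38 TTS B cells held 5 Slc11a1 UMIs, or 34.1 CPM (11.1 to 79.6). Repeat-like sequence shared with other genes covered 4.21% of the 50-base windows in the last 500 bases of Slc11a1.

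Fth1, on chromosome 19 (GRCm38 19:9980598-9985098, + strand, 4 exons), encodes the ferritin heavy chain, which oxidises iron for storage. It was counted in nearly every myeloid cell, and it was higher in TTS in all 8 myeloid gates found in both libraries. Neutrophils had the highest level in both, 9468 CPM in Control and 21693 CPM in TTS, a log2 ratio of 1.20 (1.13 to 1.26). This was the only one of 5 measured genes at least 2-fold higher in TTS neutrophils, beside 12.9% of 3394 genes.

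Among macrophages, Fth1 was at 7381 CPM in Control and 11620.4 CPM in TTS resident cells, a log2 ratio of 0.65 (0.63 to 0.68). Ccr2 macrophages were at 7225 and 11069 CPM (0.62, 0.58 to 0.65), and MHC class II high macrophages at 7712 and 11275 CPM (0.55, 0.47 to 0.62). The other macrophages were at 8185 and 19659 CPM (1.26, 1.20 to 1.33). The 3 named subsets lay within a narrow range of each other inside each library, and Arg1-high macrophages, at 11124 CPM, differed from the TTS Ccr2 level by a log2 ratio of 0.01 (-0.01 to 0.02).

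Monocytes were lower than macrophages and differed in the same direction. Classical monocytes held 4894 CPM in Control and 8807 CPM in TTS, and nonclassical monocytes 5320 and 9920.0 CPM. Dendritic cells held 2764 and 6302 CPM, a log2 ratio of 1.19 (1.13 to 1.25). B cells were the exception, at 3362 and 3454 CPM with a log2 ratio of 0.04 (-0.09 to 0.17). NK cells were at 1241 and 1932 CPM and ILC2 at 2006 and 3050 CPM.

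Ftl1, on chromosome 7 (GRCm38 7:45457944-45459884, - strand, 4 exons), encodes the ferritin light chain, which helps to form the mineral core. Its counts are uncertain: 80.9% of the 50-base windows in its last 500 bases also occur in other annotated genes, 15 of them. Only 6 of the 15 are in the files, and adding their UMIs moved the macrophage level from 82.2 to 83.2 CPM in Control and from 90.5 to 91.0 CPM in TTS. How reads with several positions were treated is not given in the sources used here, so an absolute Ftl1 level cannot be read from these counts. For Fth1 the shared windows were 12.9%, with 1 gene.

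As counted, Ftl1 was at 90.2 CPM in Control and 105 CPM in TTS resident macrophages, a log2 ratio of 0.21 (-0.06 to 0.49). In resident barcodes with no Ccr2 and no Arg1 UMI it was at 90.3 and 127 CPM (0.49, 0.11 to 0.87). In all macrophages the log2 ratio was 0.14 (-0.01 to 0.29). It was higher in TTS in nonclassical monocytes, 44.8 and 84.9 CPM (0.91, 0.32 to 1.50), in the other macrophages, 79.7 and 147 CPM (0.86, 0.17 to 1.54), and in MHC class II high macrophages, 75.4 and 122 CPM (0.73, 0.02 to 1.44). In the last gate the ratio was 0.69 (-0.08 to 1.46) without the richest barcodes. Control B cells lay lower, at 16.3 CPM.

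Hmox1, on chromosome 8 (GRCm38 8:75093621-75100589, + strand, 5 exons), encodes heme oxygenase 1, the inducible enzyme that cleaves heme into biliverdin, carbon monoxide and iron. Resident macrophages held 422 CPM (398 to 447) in the Control library and 870.0 CPM (827 to 914) in the TTS library, a log2 ratio of 1.04 (0.94 to 1.15). The Ccr2 gate held 651 CPM (601 to 703) in Control, and in TTS 284 CPM (274 to 293), a log2 ratio of -1.20 (-1.32 to -1.08). As counted, resident cells were 1.54-fold lower than Ccr2 cells in Control and 3.07-fold higher in TTS. The Control order rested on a single barcode.

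Of the 639 Hmox1 UMIs in Control Ccr2 macrophages, 338 (52.9%) lay in 1 barcode. Without the richest barcode of each library, the Ccr2 levels were 312 and 272 CPM and the log2 ratio was -0.20 (-0.37 to -0.03), so that most of the difference in this gate was in that barcode. The Control resident level was then 410.3 CPM, above the Ccr2 level of 312 CPM. The resident ratio was 0.91 (0.80 to 1.03) without the richest barcodes, which held 33 of the 1168 Control and 196 of the 1547 TTS UMIs. In resident barcodes with no Ccr2 and no Arg1 UMI (340 Control and 94 TTS), Hmox1 was at 433 and 1085 CPM, a log2 ratio of 1.32 (1.18 to 1.47).

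In resident macrophages, Hmox1 was higher in TTS both in the median cell and at the 90th percentile of the cells. The median cell had 239.7 CPM in Control and 329 CPM in TTS, and the 90th percentile was 1106 and 1690.3 CPM. The share of resident cells with an Hmox1 UMI, after thinning to 1000 UMIs, was 27.8% (23.4 to 32.5%) in Control and 29.5% (23.1 to 36.5%) in TTS, so that the intervals overlapped. Without thinning the shares were 72.0% and 87.4%, where the median cell had 6595 and 8012.5 UMIs. Control B cells, as background, had 0.629% thinned and 1.31% unthinned.

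Hmox1 was also higher in TTS in the other macrophages, 383 and 1007 CPM (1.39, 1.08 to 1.70), in nonclassical monocytes, 231 and 450.5 CPM (0.96, 0.70 to 1.22), and in classical monocytes, 112 and 203 CPM (0.84, 0.35 to 1.33). It was lower in MHC class II high macrophages, 431 and 271 CPM, where the log2 ratio of -0.65 (-1.11 to -0.19) came to -0.47 without the richest barcodes, with an interval that spanned 0. Dendritic cells held 12.1 and 7.33 CPM and Control B cells 5.23 CPM. Over all macrophages the ratio was -0.29 (-0.36 to -0.23), and among barcodes of 2 lineages it was 0.36 (0.30 to 0.41). The pooled value thus differed in sign from the resident one as counted. Without the richest barcodes the pooled ratio was -0.13 (-0.20 to -0.06), and it kept its sign in 8 of 12 alternatives.

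**Figure D3:**
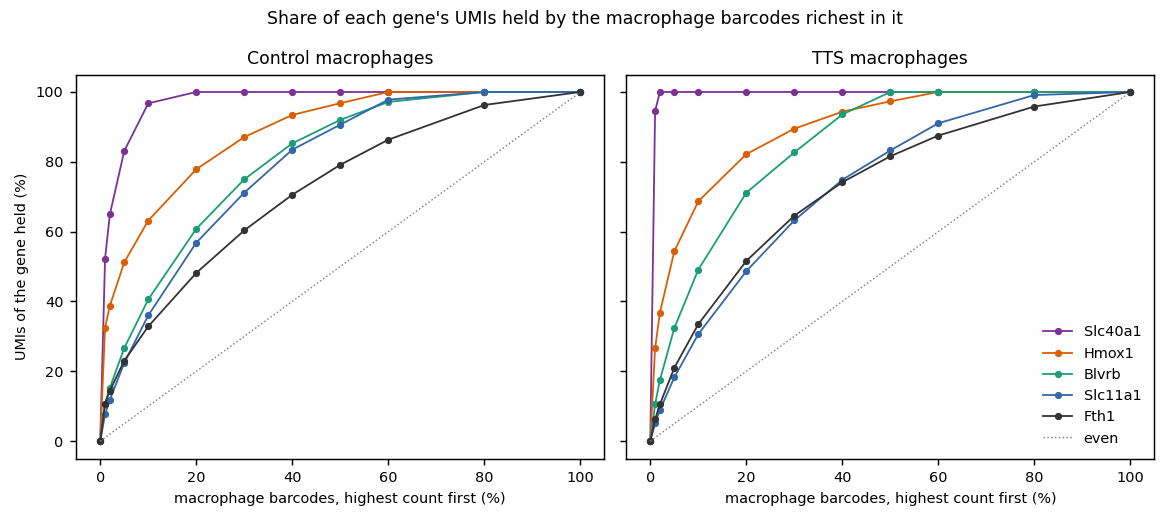
Share of a gene's UMIs (y axis, %) held by the macrophage barcodes richest in it (x axis, % of barcodes, highest count first) in Control and TTS; the dotted line marks an even spread. The richest 1% of barcodes held 32.5% of Hmox1 and 52.3% of Slc40a1 UMIs in Control, against 10.8% of Fth1 UMIs.

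Within a gate, the Hmox1 level was set beside that of Fth1 by sorting cells into quartiles of their Fth1 share of UMIs. In TTS Ccr2 macrophages, Hmox1 was at 89.9, 151, 229 and 629.5 CPM from the lowest to the highest quartile, and in TTS classical monocytes at 100.4, 131, 164 and 398 CPM. The median depth of the TTS Ccr2 quartiles lay between 7407 and 8268 UMIs. Control Ccr2 macrophages were at 152, 429, 165 and 1692 CPM, and 1 barcode held 338 of the 455 UMIs of the highest quartile. In TTS resident macrophages the quartiles were at 255, 804, 364.5 and 1863 CPM, from 97, 364, 164 and 922 UMIs. In that gate 1 barcode held 196 of the 1547 UMIs, and its weight on the quartiles was not tested. In Control resident macrophages the quartiles were at 317, 432, 447 and 460.2 CPM, so that the Control resident gate showed little slope above its lowest quartile. These are descriptions over cells of 1 library and not over replicates.

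**Figure D4:**
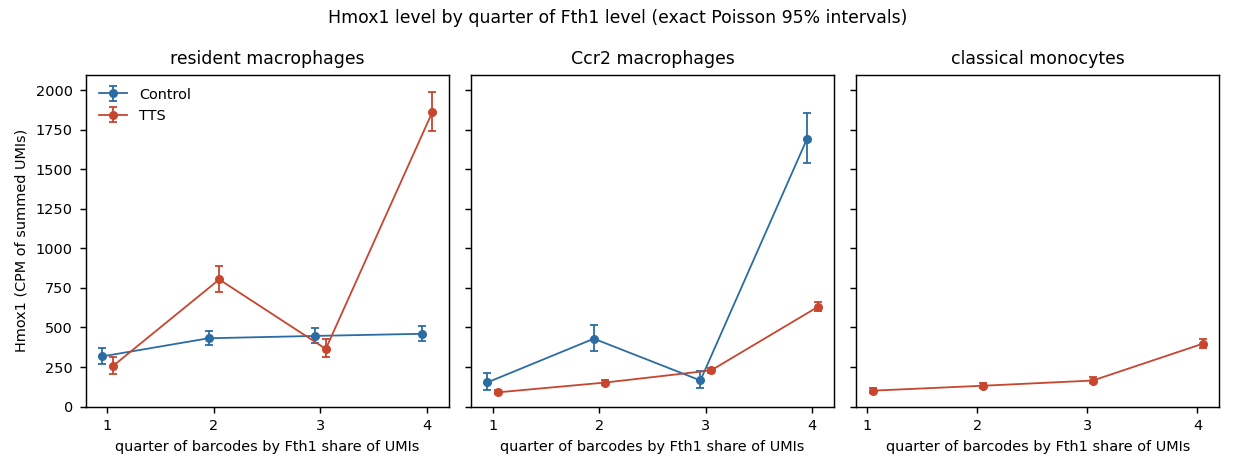
Hmox1 level (y axis, CPM of summed UMIs with exact Poisson 95% intervals) in quartiles of cells by Fth1 share of UMIs (x axis, lowest to highest) in resident macrophages, Ccr2 macrophages and, for TTS, classical monocytes. The highest quartile held the highest Hmox1 level in each line, with 1863 CPM in TTS resident macrophages and 460.2 CPM in Control ones. In Control Ccr2 macrophages 1 barcode held 338 of the 455 UMIs of that quartile. In TTS resident macrophages 1 barcode held 196 of the 1547 UMIs of the gate.

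Blvrb, on chromosome 7 (GRCm38 7:27447978-27466144, + strand, 4 exons), encodes biliverdin reductase B, which acts in the steps after heme oxygenase and as a flavin reductase. It was highest in resident macrophages in both libraries, with 384 CPM (362 to 408) in Control resident cells and 330.1 CPM (304 to 358) in TTS ones. The other macrophages followed, at 295 CPM (232 to 370) in Control, which overlapped, and 214 CPM (181 to 250) in TTS, which did not. The resident level was 2.18-fold that of Ccr2 macrophages in Control and 4.43-fold in TTS, and 1.64-fold that of MHC class II high macrophages in Control. In Control Ccr2 macrophages it was at 176 CPM and in TTS ones at 74.6 CPM, a log2 ratio of -1.24 (-1.48 to -1.01). Without the richest barcodes, which held 34 of the 173 Control UMIs and 8 of the 847 TTS UMIs, this ratio was -0.97 (-1.22 to -0.71).

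The pooled difference in Blvrb was larger than that in any macrophage gate found in both libraries. All macrophages were at 303 CPM in Control and 103 CPM in TTS, a log2 ratio of -1.55 (-1.65 to -1.46), whereas resident macrophages alone gave -0.22 (-0.36 to -0.07) and the other macrophages -0.47 (-0.87 to -0.07), or -0.40 (-0.82 to 0.03) without the richest barcodes. In resident barcodes with no Ccr2 and no Arg1 UMI the sign was opposite, at 402 and 491 CPM (0.29, 0.10 to 0.48). Arg1-high macrophages held 64.1 CPM and classical monocytes 42.8 CPM in Control and 52.4 CPM in TTS.

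Outside the macrophages, Blvrb was also found in B cells, which held 108 CPM (101 to 116) in Control, against 81.9 CPM (42.3 to 143) in TTS. The same Control B cells held Hmox1 at 5.23 CPM and Slc11a1 at 2.97 CPM, so that the 3 genes did not stand in the ratio they had in macrophages (303, 463 and 218 CPM for Blvrb, Hmox1 and Slc11a1). T cells were at 13.1 CPM and NK cells at 8.80 CPM in Control. After thinning, 9.86% of Control B cells had a Blvrb UMI, against 28.8% of Control resident macrophages.

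Slc40a1, on chromosome 1 (GRCm38 1:45908068-45926523, - strand, 8 exons), encodes ferroportin, the iron exporter. In Control it was highest in neutrophils, at 281 CPM (227 to 344), and in the other macrophages, at 211 CPM (158 to 276), which overlapped. Resident macrophages followed at 70.4 CPM (60.9 to 81.0), MHC class II high macrophages at 33.9 CPM and Ccr2 macrophages at 11.2 CPM. Of the UMIs in the other macrophages, 27 of 53 lay in 1 barcode, without which the level was 106 CPM (69.5 to 156), below that of neutrophils without theirs, 267 CPM (214 to 329). The MHC class II high and Ccr2 levels were 9.80 and 1.04 CPM without their richest barcodes. No UMI was counted in 815 TTS classical monocytes, where 6740909 UMIs in all allow up to 0.445 CPM (3 counts), and 5 UMIs were counted in 1910 Control B cells.

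In TTS, Slc40a1 was lower in macrophages and neutrophils. Resident macrophages held 195 UMIs in Control and 37 in TTS, or 70.4 and 20.8 CPM, a log2 ratio of -1.74 (-2.25 to -1.24). In TTS 19 of the 37 lay in 1 barcode, and without the richest barcodes the levels were 63.0 and 10.3 CPM and the ratio -2.58 (-3.27 to -1.89). The other macrophages held 53 and 10 UMIs, or 211 and 13.9 CPM (-3.87, -4.82 to -2.92), and neutrophils 93 and 21 UMIs, or 281 and 74.4 CPM (-1.89, -2.57 to -1.21). Over all macrophages the levels were 56.5 and 3.02 CPM (-4.21, -4.63 to -3.80). In TTS MHC class II high macrophages no UMI was counted in 22 barcodes, which allows up to 20.4 CPM.

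These UMIs were concentrated in few macrophages but not in few neutrophils. In Control, 12 of the 849 macrophages had at least 5 Slc40a1 UMIs, a limit chosen after the values were seen, and they held 58.8% of the Slc40a1 UMIs. By gate they were 7 resident, 1 MHC class II high, 1 Ccr2 and 3 other macrophages. In TTS, 2 of 2042 macrophages reached this limit, 1 resident and 1 other. In Control neutrophils, 47.5% of the 118 barcodes had a UMI and no barcode had more than 5.

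The 12 Control barcodes held Hmox1 at 4925 CPM, against 347 CPM in the remaining 837, Fth1 at 26888 against 6970.0 CPM, Blvrb at 1066 against 283 CPM and Slc11a1 at 497 against 210.4 CPM. For Tfrc the intervals overlapped, at 50.4 CPM (20.3 to 104) and 23.9 CPM (19.9 to 28.5). Of the 12, the highest in Hmox1, at 20789.8 CPM, was the Ccr2 barcode described above, with 338 of their 684 Hmox1 UMIs. The median cell had 844 CPM of Hmox1 in the 12 and 155 CPM in the remaining 837. For Fth1 the medians were 14494 and 6112 CPM. Of the macrophage genes set beside these barcodes, Spic was seen in 4 of the 12 and 87 of the 837, and Vcam1 in 3 and 93. Cd163 was at 454 and 408 CPM and C1qa at 4068 and 5256 CPM. In TTS the 2 barcodes held Hmox1 at 8144 CPM, against 363 CPM in the rest.

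In resident macrophages, Hmox1 was the only one of the 7 genes at least 2-fold higher in TTS, beside 8.44% of 9677 genes, and Slc40a1 the only one at least 2-fold lower, beside 10.7%. The Hmox1 ratio of 0.91 without the richest barcodes is under 2-fold. In Ccr2 macrophages, where 6 of the 7 genes had at least 20 UMIs, 0 were at least 2-fold higher, beside 11.6% of 10657 genes, and 2, Hmox1 and Blvrb, were at least 2-fold lower, beside 19.2%. Without the richest barcodes neither was, at -0.20 and -0.97. In classical monocytes 0 of 6 were at least 2-fold higher, beside 13.1% of 9356 genes, and 0 of 6 lower, beside 19.3%. In neutrophils 1 of 5, Slc40a1, was at least 2-fold lower, beside 12.4%.

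The other genes of iron and heme metabolism were taken from 8 lists with 65 genes, of which 63 are in the files and 55 had at least 20 UMIs in macrophages. In TTS macrophages 8 of the 55 were at least 2-fold higher, beside 9.84% of all genes, and 13 at least 2-fold lower, beside 23.4%. These shares are the background of the list counts in pooled macrophages that follow. The median log2 ratio of the 55 genes was -0.11, beside -0.27 over all genes. These values pool the macrophage gates, whose numbers of barcodes differed between the libraries, and the part of that difference was not tested.

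Of the genes that take up heme and hemoglobin, 1 of 4 was higher and 1 lower. Cd163, the hemoglobin-haptoglobin receptor and itself a marker of resident macrophages, went from 409 to 71.3 CPM, a log2 ratio of -2.52, and was at 657 and 583 CPM within the resident gate. Hp, haptoglobin, which binds free hemoglobin, went from 11.4 to 217 CPM (4.24). The neutrophil gene S100a8 was at 7.34 CPM in Control and 99.8 CPM in TTS macrophages, and its part in the Hp value was not tested.

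In pooled macrophages, iron uptake and reduction was the list with the most lower genes, 6 of 9, with a median of -1.72. In the resident gate 3 of 6 were lower, beside 10.7% of all genes, and 2 higher, beside 8.44%, with a median of -0.60. In the Ccr2 gate 3 of 6 were lower, beside 19.2%, and 2 higher, beside 11.6%, with a median of -1.04. Slc22a17, the lipocalin 2 receptor, Trf, transferrin, and Steap4, a metalloreductase, had the lowest pooled ratios, at -3.18, -2.40 and -2.19. Trf went from 921 to 174 CPM. Lcn2, lipocalin 2, which binds iron-loaded siderophores, and Slc39a14, a transporter of zinc and iron, were higher, at 6.64 (5.13 to 8.15, from 3 Control UMIs) and 2.53. The part of the S100a8 difference given above in the Lcn2 value was not tested either.

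In iron and heme export, 0 of 4 were at least 2-fold higher and 3 were lower in the pooled macrophages. In the resident gate 1 of 4 was lower, beside 10.7% of all genes. In the Ccr2 gate 1 of 3 was lower, with a median of 0.52 for the list, beside 19.2% of all genes. Cp, ceruloplasmin, the ferroxidase that works with ferroportin, went from 43.7 to 3.08 CPM (-3.82), Abcc5 from 40.9 to 13.7 CPM (-1.58) and Abcg2 from 10.5 to 4.12 CPM (-1.35). In heme breakdown, Por, the cytochrome P450 reductase that feeds electrons to heme oxygenase, went from 56.0 to 146 CPM (1.38), Blvra, the main adult biliverdin reductase, from 68.7 to 81.1 CPM (0.24), and Hmox2, the constitutive heme oxygenase, from 6.42 to 3.08 CPM (-1.07). None of the 4 measured genes of storage and ferritinophagy passed 2-fold, and Ncoa4, the ferritin cargo receptor, was at 6.42 and 3.57 CPM.

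Heme synthesis had 1 gene of 9 past 2-fold. This was Alas1, the first enzyme of the pathway, which went from 22.0 to 104 CPM, a log2 ratio of 2.24 (1.97 to 2.50). Of the 11 genes of mitochondrial iron and iron-sulfur clusters, 2 were at least 2-fold higher, among them Sfxn1 at 1.69, and 0 lower. Of the 11 regulators, Nr1h3, the liver X receptor alpha, was higher at 1.63, and Spic (-3.07) and Bach1 (-1.15) were lower. Bach1, a heme-sensing repressor of Hmox1, was at 314 and 142 CPM, and Nfe2l2, its activator, at 376 and 384 CPM.

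Hemoglobin genes, as a trace of red blood cells, were close to absent in the macrophages, with 11 UMIs in Control and 5 in TTS over 5 genes, of which 2 were at 0 in each library. Cardiomyocyte genes were at 160.2 CPM in Control and 45.6 CPM in TTS macrophages over 6 genes, with none at 0. Fibroblast genes were at 129.96 and 286 CPM over 7 genes, 1 and 2 of them at 0. In TTS Arg1-high macrophages 6 of these 7 were at 0, so that all 1316 UMIs, or 315 CPM, came from a single gene. Endothelial genes were at 57.6 and 71.8 CPM over 6 genes, with none at 0. Platelet genes were at 14.9 and 36.0 CPM over 5 genes, 2 of them at 0 in each library. In the resident gate, where Hmox1 was higher in TTS, they were at 16.6 and 134 CPM, with 3 and 4 at 0. All 239 platelet-list UMIs of the TTS resident gate thus came from a single gene. The part of these lists in the results was not tested.

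Each gene was also matched to the genes whose level was most like its own over the 26 combinations of gate and library, by Pearson's r of log2(CPM + 10) among 7217 genes with at least 50 CPM in 1 of them. The points share libraries and depth, and the values are a description. For Hmox1 these were Trem2 (0.93), C3ar1 (0.93) and Emr1 (0.93), and for Blvrb Tpp1 (0.89), Apoe (0.88) and Itsn1 (0.87). For Slc11a1 they were Igsf6 (0.97), Pla2g7 (0.96) and Tlr2 (0.96), and for Fth1 Gabarap (0.91), Rbm47 (0.89) and Ptafr (0.86). Ftl1 was most like Mitf (0.92), Cd68 (0.92) and C5ar1 (0.91), and among the genes most like Slc40a1 were Tlr6 (0.84) and Ampd3 (0.83), and among those most like Tfrc Jtb (0.78) and Snap29 (0.77). Among the 7 genes themselves, r was 0.90 for Hmox1 and Ftl1, 0.88 for Hmox1 and Slc11a1, and -0.20 for Slc11a1 and Tfrc.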

How the data were processed

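CD45+ heart cells were profiled in 1 Control and 1 TTS library. The deposited values are raw UMI counts per gene and barcode, which the authors made with bcl2fastq 2.19.1.403, UMI-tools 1.0.0, STAR 2.7.3a on mm10 and featureCounts 1.6.4 (Subread), as the submitters' processing notes list them; the treatment of multi-mapped reads and the annotation release are not given in the sources used here. The files hold 47382455 and 58495112 UMIs on 5927 and 5514 barcodes. The filter of the methods left 5641 and 5437, which are the numbers of cells the methods work with.

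A barcode was given a lineage from at least 3 genes of a marker list (4 for macrophages, classical monocytes and neutrophils). The resident gate needed 2 UMIs over Timd4, Lyve1 and Folr2, the Arg1-high gate 10 Arg1 UMIs, the Ccr2 gate 1 Ccr2 UMI and the MHC class II high gate 20 UMIs over H2-Aa, H2-Ab1 and H2-Eb1. Barcodes of 2 lineages were kept apart in place of a doublet caller. Gates under 20 barcodes gave no value. Before taking log2 ratios, 0.5 UMI was added. Shares of cells have exact Clopper-Pearson 95% intervals and were thinned to 1000 UMIs. The members and lists were chosen with earlier results of these data known. Named genes were the 7 members, up to 3 genes with the largest ratio each way per list, and the 3 most alike genes of each member; S100a8, Ccr2, Arg1, Gm26924 and the genes named within 2-fold were added after their values were seen. Some genes that this rule names are not reported here. Gene positions and the hairpin search used GENCODE M21 on GRCm38. The scripts ran in Python 3.11.15 (scipy 1.17.1, numpy 2.4.6, matplotlib 3.10.9 and pandas 2.3.3). The ratio step was tested on simulated data. Each macrophage ratio was recomputed under 12 alternatives, of which 2, like the limit of 5 Slc40a1 UMIs and the resident gate without Ccr2 or Arg1 UMIs, were added after seeing the values.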

Additional observations from a re-analysis of the deposited data

Results flagged for a closer look

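Hmox1 and Slc40a1 had log2 ratios of TTS to Control on opposite sides of 0 in different gates, each past 1.5-fold with a counting interval that excluded 0. The difference between the gates was not tested, because each library is a single sample. Hmox1 ranged from -1.20 in Ccr2 macrophages to 2.17 (0.59 to 3.75) in B cells, where TTS had 3 UMIs in 38 barcodes and Control 37 UMIs in 1910, and it was 1.04 in resident macrophages. Without the richest barcodes the Ccr2 ratio was -0.20 (-0.37 to -0.03), under 1.5-fold. The same 38 TTS B cells also held more Slc11a1, which B cells should lack, at 34.1 CPM against 2.97 CPM in Control. That log2 ratio was 3.63 (2.27 to 4.98), from 5 TTS UMIs, and the source of these UMIs was not tested. Slc40a1 ranged from -4.36 (-5.74 to -2.97) in Ccr2 macrophages, with 11 Control and 6 TTS UMIs, to 2.17 (0.24 to 4.11) in nonclassical monocytes, with 2 Control and 14 TTS UMIs. In both of these Slc40a1 gates 1 barcode held most of the higher library's UMIs, 10 of 11 and 12 of 14. Without the richest barcodes, the ratios were -2.33 (-5.09 to 0.43) and 0.39 (-2.53 to 3.31).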

How the results depend on the processing

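Each gene's log2 ratio over all macrophages was recomputed under 12 alternatives. Blvrb, Slc40a1, Slc11a1, Fth1 and Ftl1 kept their sign in all 12, Hmox1 in 8 and Tfrc in 9, and Slc40a1 stayed past 2-fold in 12 and Blvrb in 10. The values that moved beyond their counting interval follow.
With 1 more list gene for each lineage, the ratios were 0.0403 for Hmox1, -1.32 for Blvrb, -3.55 for Slc40a1, 0.55 for Slc11a1 and 0.67 for Fth1. With barcodes of 2 lineages counted with their leading lineage they were 0.13 for Hmox1, -1.19 for Blvrb, -2.98 for Slc40a1, 0.72 for Slc11a1, 0.82 for Fth1 and 0.31 for Ftl1. After thinning to 2000 UMIs before gating they were 0.12 for Hmox1, -1.22 for Blvrb, -3.56 for Slc40a1, 0.65 for Slc11a1 and -0.44 for Tfrc. Median-of-ratios scaling, which moves the median of all genes by 0.27 on the log2 scale, gave -0.0202 for Hmox1, -1.28 for Blvrb, 0.68 for Slc11a1, 0.89 for Fth1 and 0.41 for Ftl1. The mean over subsets gave -0.43 for Hmox1, -0.88 for Blvrb, -3.59 for Slc40a1, 0.38 for Tfrc, 0.66 for Fth1 and 0.32 for Ftl1. The mean of each cell's CPM gave -0.0544 for Hmox1, -1.31 for Blvrb and 0.70 for Fth1. Leaving mitochondrial, ribosomal protein and Gm26924 UMIs out of the totals gave -0.37 for Hmox1 and 0.55 for Fth1, and requiring 1000 genes and under 10% mitochondrial UMIs gave -0.11 for Hmox1.
Of the alternatives added after seeing the data, leaving out the 1% of barcodes highest in a gene gave -0.20 for Hmox1, -7.19 for Slc40a1 and 0.67 for Fth1. Ccr2-negative macrophages alone gave 1.15 for Hmox1, -0.0467 for Blvrb, -2.11 for Slc40a1, 0.15 for Slc11a1, 1.10 for Fth1 and 0.65 for Ftl1. The cause of these shifts was not tested. No paired analysis was possible because each group is 1 library, and no replicate could be left out. Depth limits Tfrc and Slc40a1 most, with 134 and 308 UMIs in Control and 434 and 55 in TTS macrophages.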
